A study of Mus musculus with 6 samples.

Results

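Complex I of the respiratory chain takes electrons from NADH, passes them to ubiquinone and pumps protons across the inner mitochondrial membrane. It is assembled from subunits of both genomes: mitochondrial DNA encodes 7 hydrophobic subunits of the membrane arm, and the nucleus encodes all others. The 7 mitochondrial mRNAs, mt-Nd1, mt-Nd2, mt-Nd3, mt-Nd4, mt-Nd4l, mt-Nd5 and mt-Nd6, were taken by their Ensembl gene IDs from the Ribo-seq values of 6 mouse tissues. Of these, 6 had values, among 18437 mRNAs with a value in any library, and mt-Nd4 was not analysed here.

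Untreated wild-type C57BL/6J mice aged 4 weeks gave 1 library for each tissue, namely heart, lung, brain, kidney, colon and small intestine. Ribo-seq sequences the mRNA fragments that remain after RNase digestion of a lysate, and the protocol in the labels names cycloheximide in the lysis buffer, RNase I digestion and a gel cut of short fragments, with no step that isolates ribosomes. The values are RPKM, which divide the reads on a coding sequence (CDS) by its length and by the total reads on CDSs, and are called ribosome density here. No RNA-seq values were used, so more mRNA and more ribosomes per mRNA cannot be told apart. In bulk tissue, fewer cells of a type and less RNA per cell cannot be told apart either.

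Whole reads were recovered from the RPKM values, with 4504853 to 10635031 reads on CDSs per library. Each library is called by its label, so that the heart library is the one labelled heart. A set of 18 tissue markers, 3 for each tissue, served to check the labels. All 3 markers of heart and all 3 of lung were highest under their own label, but the markers went against the other 4 labels. Brain markers were highest in the small intestine library, small intestine markers in the brain library, colon markers in the kidney library and kidney markers in the colon library. The libraries were kept as labelled, and the comparison of heart with lung, which does not use those 4 libraries, is given beside each main result. No tissue had a replicate, so no test between tissues was possible, and the intervals given cover counting error only.

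Mitochondrial mRNAs are cut from long transcripts that cover almost a whole strand of the circular genome, with tRNAs marking most of the cuts, and they are translated inside the organelle by mitochondrial ribosomes with a modified genetic code. Nuclear-encoded subunits are made on cytosolic ribosomes and imported. Cycloheximide stalls cytosolic ribosomes and leaves mitochondrial ribosomes free to move. Heart muscle is known for its dense mitochondria and its dependence on respiration.

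The annotated coding sequences (GRCm39, GENCODE) lie on chrM, and 6 of the 7 are on the plus strand. The first 24 bases of each are shown because the start codons differ between the subunits and because mt-Nd6, on the minus strand, has another base composition. Capitals mark the start codon, and each sequence runs 5′ to 3′ on the coding strand.
mt-Nd1: GTGttctttattaatatcctaaca
mt-Nd2: ATAaatcctatcacccttgccatc
mt-Nd3: ATTaacctgtacactgttatcttc
mt-Nd4l: ATGccatctaccttcttcaacctc
mt-Nd4: ATGctaaaaattattcttccctca
mt-Nd5: ATCaatattttcacaacctcaatc
mt-Nd6: ATGaataattatatttttgtttta
Of the 7 mRNAs, mt-Nd4l, mt-Nd4 and mt-Nd6 open with ATG, whereas mt-Nd1 opens with GTG, mt-Nd2 with ATA, mt-Nd3 with ATT and mt-Nd5 with ATC, which mitochondrial ribosomes accept as starts.

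The CDS of mt-Nd1 runs from chrM:2751 to 3707, with 318 codons between the tRNA genes mt-Tl1 and mt-Ti. That of mt-Nd2 runs from chrM:3914 to 4951, with 345 codons between mt-Tm and mt-Tw. The CDS of mt-Nd3, at chrM:9459-9806, has 115 codons, and that of mt-Nd4l, at chrM:9877-10173, has 98. The longest CDS is that of mt-Nd5, at chrM:11742-13565, with 607 codons. On the minus strand, mt-Nd6 lies at chrM:13552-14070 with 172 codons. The coding strand of mt-Nd6 holds 28.1% G and 5.97% C, whereas the other 5 measured CDSs hold 8.00% to 11.6% G and 22.1% to 30.0% C.

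A pair of overlaps bears on how reads could be assigned, and both are shown on the plus strand with the shared bases in capitals.
mt-Nd4l and mt-Nd4, chrM:10158-10182: cctactacaATGCTAAaaattattc
mt-Nd5 and mt-Nd6, chrM:13544-13573: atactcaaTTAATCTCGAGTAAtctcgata
The mt-Nd4l and mt-Nd4 frames share 7 bases on the same strand, and the 3′ ends of mt-Nd5 and mt-Nd6 share 14 bases on opposite strands. The annotated mt-Nd4 CDS, at chrM:10167-11544, is 1378 bases long, which leaves a remainder of 1 after division by 3, and it ends in a lone T. The same holds for mt-Cytb and mt-Co3, with 1144 and 784 bases, which were not analysed here either, so that 10 of the 13 mitochondrial mRNAs had values. No mRNA in the tables had a CDS length that was not a multiple of 3.

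All 6 measured mt-Nd mRNAs were densest in the heart library, and 5 of the 6 were least dense in the lung library. The size of the difference varied from subunit to subunit, from 5.86-fold for mt-Nd4l to 55.5-fold for mt-Nd1 between heart and lung. Within each library mt-Nd6 was the densest and mt-Nd5 the next, while the order of the other 4 changed. Values are given from the proton-pumping subunits of the membrane arm, through mt-Nd1 at the ubiquinone site, to the small subunits that join both.

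**Figure D1:**
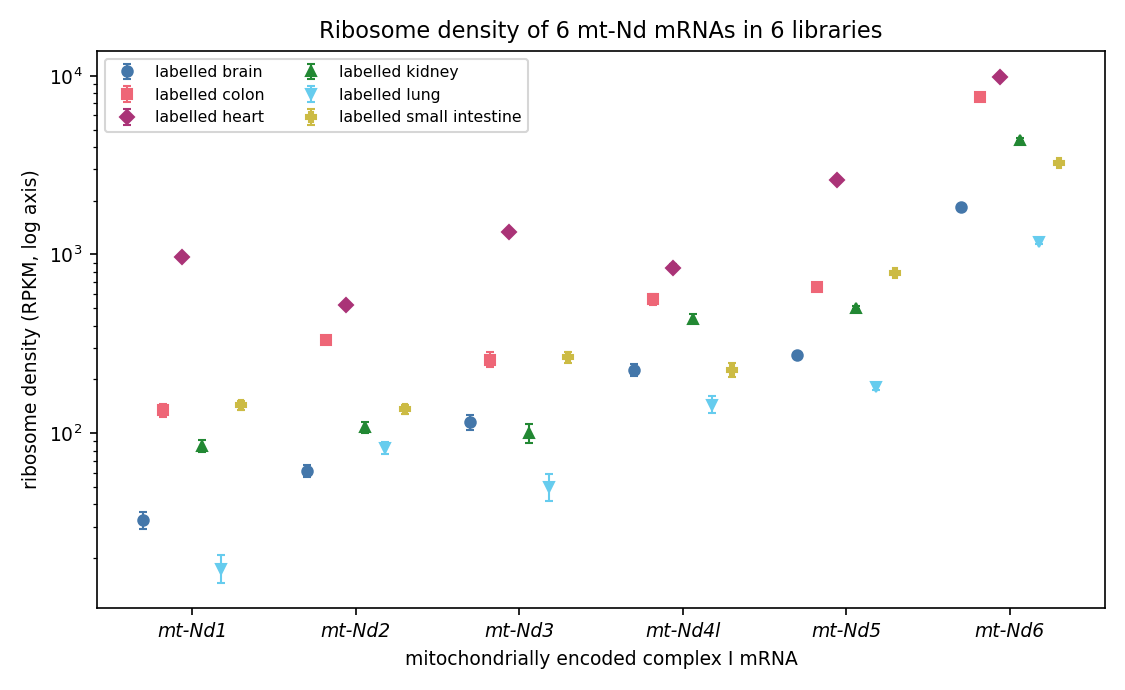
Ribosome density (RPKM, log axis) of each measured mt-Nd mRNA in the 6 libraries; points are single libraries and bars are 95% exact Poisson intervals, which cover counting error only. The heart library is the highest for all 6 mRNAs, and the spread between libraries is widest for mt-Nd1, from 17.5 to 970.2 RPKM.

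Mt-Nd5 encodes the large pump subunit at the far tip of the membrane arm. Its ribosome density was 273 RPKM in the brain library, 657 in colon, 2614 in heart, 505 in kidney, 181 in lung and 784 in small intestine. The heart library was 3.33-fold above the small intestine library, the next highest. These values rest on 2552 to 38948 reads, and no pair of neighbours in this order had overlapping intervals.

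Mt-Nd2, the pump subunit nearer to the matrix arm, had 61.5 RPKM in brain, 332 in colon, 522 in heart, 108 in kidney, 82.4 in lung and 136 in small intestine. It was the single mt-Nd mRNA with its lowest value in the brain library and not in the lung library, and its heart value was 1.57-fold above that of colon. The highest value was 8.49-fold above the lowest.

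Mt-Nd1, which lines the channel through which ubiquinone reaches its site, varied most between libraries. It had 32.5 RPKM in brain, 134 in colon, 970.2 in heart, 84.6 in kidney, 17.5 in lung and 143 in small intestine. The heart value was 6.76-fold above the next highest, and the interval of the lung value, from 129 reads, was 14.6 to 20.8 RPKM. By RPKM, mt-Nd1 stood at rank 131 of all mRNAs in the heart library and at rank 4898 in the lung library.

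Mt-Nd3 is a small subunit whose loop lies close to the ubiquinone site. Its density was 116 RPKM in brain, 258 in colon, 1335 in heart, 99.8 in kidney, 49.9 in lung and 266 in small intestine. Heart was 5.02-fold above the next highest, but colon could not be told from small intestine, nor brain from kidney, within counting error.

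Mt-Nd4l, a small membrane subunit encoded next to mt-Nd4, had 225 RPKM in brain, 560.2 in colon, 845 in heart, 438 in kidney, 144 in lung and 225 in small intestine. It had the narrowest range, 5.86-fold between heart and lung, and the heart value was 1.51-fold above that of colon. Brain and small intestine, at the same density, had overlapping intervals.

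Mt-Nd6, a small membrane subunit beside mt-Nd4l and mt-Nd3, had 1853 RPKM in brain, 7575 in colon, 9868 in heart, 4397 in kidney, 1172 in lung and 3254 in small intestine. It stood among the densest mRNAs, between rank 8 in the colon library and rank 87 in the lung library. Heart was 1.30-fold above colon, the smallest lead of heart among the 6 mRNAs. Over the 6 mRNAs, intervals overlapped for 4 of the 30 pairs of libraries next to each other in order, the remaining pair being small intestine and colon for mt-Nd1.

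The mRNAs do not fall in the same order of libraries. After heart, small intestine came next for mt-Nd1, mt-Nd3 and mt-Nd5, whereas colon came next for mt-Nd2, mt-Nd4l and mt-Nd6. For mt-Nd4l the small intestine library was the fifth of the 6, above lung.

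The reads on the 6 mRNAs together made up 0.165% of all reads on CDSs in the brain library (95% Wilson interval 0.163% to 0.168%), 0.583% in colon, 1.20% in heart (1.20% to 1.21%), 0.354% in kidney, 0.110% in lung (0.107% to 0.112%) and 0.354% in small intestine. The heart share was 11 times the lung share and 2.06 times the colon share, the next highest. Kidney and small intestine had overlapping intervals, 0.350% to 0.359% and 0.350% to 0.358%. Mt-Nd6 held 42.3% of these reads in heart and 67.0% in colon, the lowest and the highest of the 6 libraries. Without mt-Nd6, the share was 0.694% in heart, 0.192% in colon, 0.186% in small intestine, 0.127% in kidney, 0.0697% in brain and 0.0492% in lung, so heart stood 14.1-fold above lung and 3.61-fold above colon.

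A nuclear mRNA, Kri1, took 22.1% of the reads in the kidney library and 14.1% in the small intestine library, against 0.400% in lung and 1.04% in heart. Every share and RPKM in a library is lowered by such reads. With Kri1 left out of the total, the share of the mt-Nd mRNAs was 0.455% in kidney and 0.412% in small intestine, both still below the 0.626% of colon and the 1.22% of heart.

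**Figure D2:**
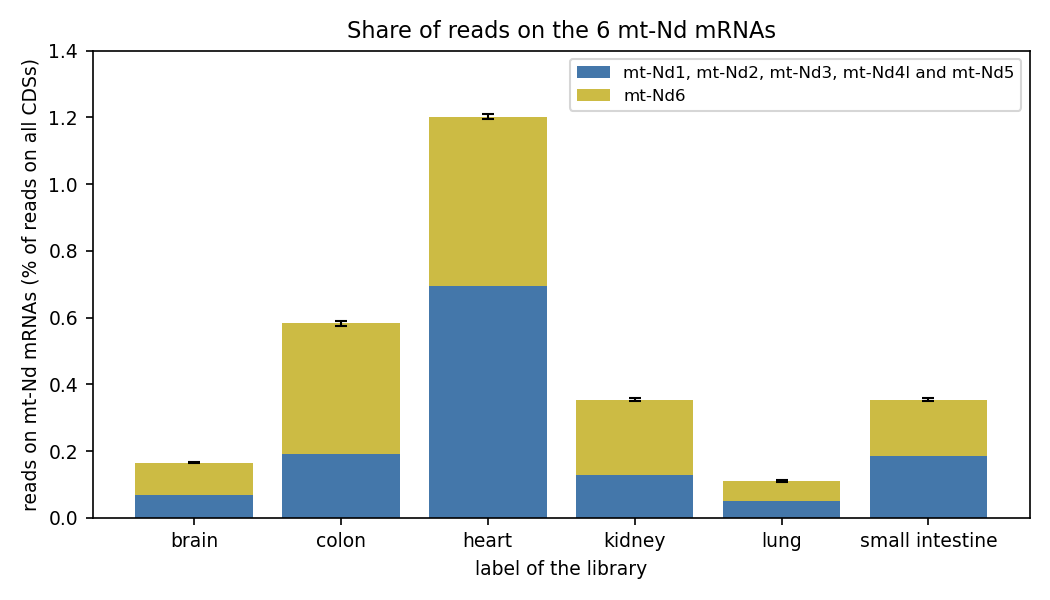
Percent of all reads on CDSs that fell on the 6 measured mt-Nd mRNAs in each library, split into mt-Nd6 and the other 5; bars start at 0 and whiskers are 95% Wilson intervals of the total. The heart library reaches 1.20% and the lung library 0.110%, and mt-Nd6 fills a smaller part of the bar in heart (42.3%) than in colon (67.0%).

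To set the mt-Nd mRNAs against all others, each library was compared with the median of the other 5 on the log2(RPKM + 1) scale, over 12558 mRNAs with at least 100 reads in all, and a difference of at least 2-fold was counted. In the heart library all 6 mt-Nd mRNAs were at least 2-fold higher, where 18.7% of all mRNAs were, and none was at least 2-fold lower, where 21.3% were. Their log2 differences ran from 1.60 for mt-Nd6 to 3.52 for mt-Nd3, with a median of 2.32, against a median of -0.06 over all mRNAs. In the lung library 5 of the 6 were at least 2-fold lower, where 19.2% of all mRNAs were, and none was at least 2-fold higher, where 32.1% were. The median was -1.88, against 0.32 over all mRNAs. The exception was mt-Nd2, at -0.72.

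Brain was the other library with low mt-Nd density: 5 of 6 were at least 2-fold lower, where 25.4% of all mRNAs were, and none was higher, where 23.6% were. Mt-Nd4l had a log2 difference of -0.96 there. In the colon library 4 of 6 were at least 2-fold higher, where 22.5% of all mRNAs were, and none was lower, where 19.4% were. With median-of-ratios size factors 2 of 6 were higher in colon. The log2 differences of mt-Nd1 and mt-Nd5 were 0.66 and 0.38. Kidney and small intestine stood between these. In kidney mt-Nd3 alone was at least 2-fold lower, with 18.3% of all mRNAs, and none was higher, with 18% of all. In small intestine mt-Nd3 alone was at least 2-fold higher, with 26.2% of all mRNAs, and none was lower, with 23.8% of all. The median log2 difference was -0.36 in kidney and 0.48 in small intestine. Because the 6 medians of others share libraries, these counts are not independent of each other.

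Heart and lung, the libraries whose labels the markers bear out, were also compared directly. All 6 mt-Nd mRNAs were at least 2-fold higher in heart, where 21.6% of all mRNAs were, and none was lower, where 35.2% were. The RPKM ratio of heart to lung was 55.5 for mt-Nd1 (95% counting interval 46.6 to 66), 26.8 for mt-Nd3 (22.5 to 31.8) and 14.4 for mt-Nd5 (13.9 to 15.0). It was 8.42 for mt-Nd6 (8.17 to 8.68), 6.34 for mt-Nd2 (5.84 to 6.88) and 5.86 for mt-Nd4l (5.21 to 6.58). The median log2 difference was 3.46, against -0.31 over all mRNAs. Only the intervals of mt-Nd2 and mt-Nd4l overlapped among the 6 ratios.

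The density of the subunits relative to each other was then compared within libraries. Mt-Nd6 was the densest and mt-Nd5 the second densest in all 6. Mt-Nd6 held 61.1% of the summed RPKM of the 6 mRNAs in heart and 79.6% in colon, the ends of its range, and mt-Nd5 held 6.90% in colon and 16.3% in small intestine. The remaining 4 traded places. In the colon, kidney and lung libraries the order was the same, mt-Nd6, mt-Nd5, mt-Nd4l, mt-Nd2, mt-Nd3 and mt-Nd1. In the heart library mt-Nd3 and mt-Nd1 followed mt-Nd5, ahead of mt-Nd4l and mt-Nd2.

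Spearman's rho over the 6 mRNAs, given as a description, ran from 0.54 to 1 over the 15 pairs of libraries, with a median of 0.89. Heart and small intestine, the library with the highest brain markers, had 0.94, and heart had 0.54 with each of colon, kidney and lung. All points share the CDS lengths and base compositions, and without mt-Nd6 the range was 0.20 to 1. Of the variance of log2 RPKM over all libraries and measured mRNAs, 63.0% lay between subunits, 32.0% between libraries and 4.99% in the remainder after both. Mt-Nd6 stood far from the others, with a log2 RPKM on average 3.35 above the library mean, against -1.86 for mt-Nd1 to 0.67 for mt-Nd5. The split was not run without mt-Nd6, so the order of the part between subunits and the part between libraries may depend on it.

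**Figure D3:**
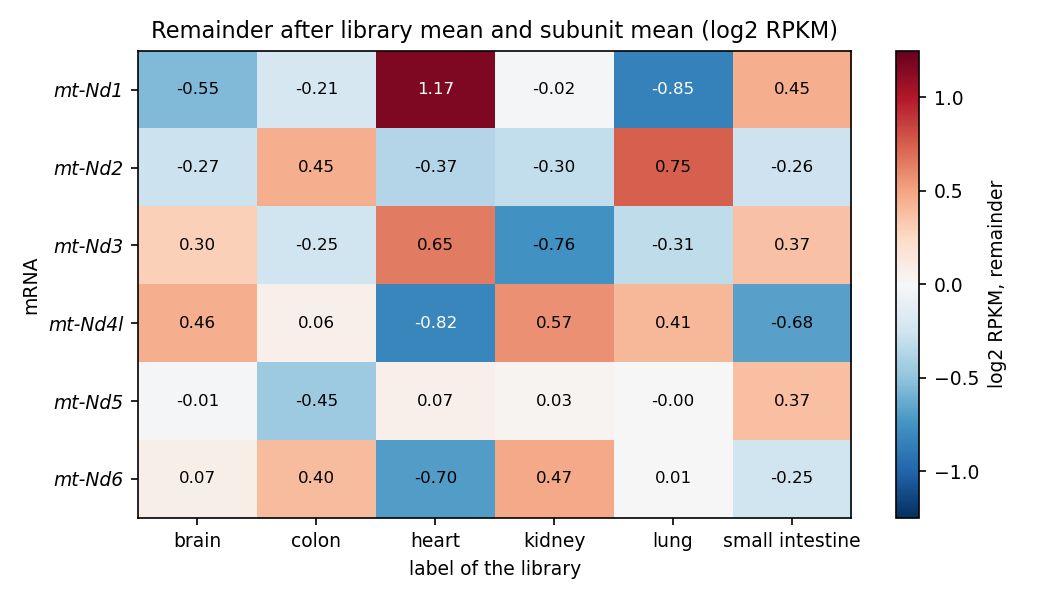
Log2 RPKM of each measured mt-Nd mRNA in each library after the mean of its library and the mean of its mRNA were taken off; colours run from blue (lower than both means give) to red (higher). The largest remainders are those of mt-Nd1, 1.17 in heart and -0.85 in lung, and mt-Nd4l is low in heart (-0.82) and small intestine (-0.68).

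The remainder was largest for mt-Nd1 in heart, 1.17 on the log2 scale, and for mt-Nd1 in lung, -0.85. Mt-Nd4l had -0.82 in heart and -0.68 in small intestine but 0.57 in kidney. Mt-Nd3 had 0.65 in heart and -0.76 in kidney, and mt-Nd2 had 0.75 in lung.

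Ratios of subunits within a library do not depend on the total reads, nor on Kri1. The pairs were chosen after the values were seen. The RPKM ratio of mt-Nd1 to mt-Nd4l was 0.144 in brain, 0.240 in colon, 1.15 in heart, 0.193 in kidney, 0.121 in lung and 0.637 in small intestine. The ratio in heart (95% counting interval 1.09 to 1.21) was 9.47 times that in lung (0.0989 to 0.149), with small intestine (0.573 to 0.708) between them and the other 3 libraries closer to lung.

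The ratio of mt-Nd5 to mt-Nd4l separated the libraries into 2 sets. It was 3.09 in heart and 3.48 in small intestine, and between 1.15 and 1.26 in brain, colon, kidney and lung, where the intervals overlapped. The ratio of mt-Nd3 to mt-Nd4l was above 1 in the same 2 libraries, at 1.58 in heart and 1.18 in small intestine, and between 0.228 and 0.513 in the other 4. In these 2 libraries mt-Nd4l was thus low against mt-Nd1, mt-Nd3 and mt-Nd5.

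The ratio of mt-Nd6 to mt-Nd5, the pair that overlaps on opposite strands, was 6.80 in brain, 11.5 in colon, 3.78 in heart, 8.71 in kidney, 6.46 in lung and 4.15 in small intestine. It was lowest in heart (3.72 to 3.83) and small intestine (4.05 to 4.26) and highest in colon (11.2 to 11.9). Mt-Nd6 is antisense to the long transcript that carries the other mt-Nd mRNAs, and whether the authors' counting used strand is not given in the sources used here. If it did not, reads from the antisense transcript over the mt-Nd6 region would be counted in mt-Nd6, and their part in its density was not tested.

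Copies of mitochondrial DNA in the nuclear genome bear on the counts of some subunits. No 28-base window of a measured mt-Nd CDS occurred in another mRNA of the tables. Against all annotated transcripts of GENCODE, which the authors' alignment to coding mRNAs did not include, none of the windows of mt-Nd1 had a copy, but 99.1% of those of mt-Nd3 did, in Gm71269 or Gm28438, and 98.9% of those of mt-Nd4l did, in Gm10222. The share was 19.0% for mt-Nd5, 15.6% for mt-Nd2 and 10.4% for mt-Nd6. Among the other mitochondrial mRNAs with values it was 100% for mt-Co2, 99.5% for mt-Atp6, 66.7% for mt-Co1 and 9.04% for mt-Atp8, the last in mt-Atp6 and its copy. The part of reads from such copies in any of these values was not tested.

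The other mitochondrial mRNAs with values encode subunits of cytochrome c oxidase (mt-Co1 and mt-Co2) and of ATP synthase (mt-Atp6 and mt-Atp8). They held more reads than the mt-Nd mRNAs in every library, 4.11% in heart, 3.14% in kidney, 1.95% in colon, 1.75% in brain, 1.60% in small intestine and 0.760% in lung. Of the reads on mitochondrial mRNAs with values, the measured mt-Nd mRNAs made up 22.6% in heart, 23% in colon and 18.1% in small intestine. Their part was 8.65% in brain, 10.1% in kidney and 12.6% in lung. Reads on mt-Nd4, mt-Cytb and mt-Co3 are in neither side of these percentages. Brain and kidney had the lowest shares.

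Between heart and lung, the 4 others were all at least 2-fold higher in heart, beside 21.6% of all mRNAs, with RPKM ratios of 8.79 for mt-Co1 (95% counting interval 8.63 to 8.95), 5.63 for mt-Co2, 4.39 for mt-Atp6 and 2.54 for mt-Atp8. Mt-Nd1, mt-Nd3 and mt-Nd5 thus stood above each of the 4, while mt-Nd2, mt-Nd4l and mt-Nd6 fell in their range. Against the other 5 libraries, 3 of the 4 were at least 2-fold higher in heart, beside 18.7% of all mRNAs, and 4 of the 4 at least 2-fold lower in lung, beside 19.2%. In kidney their median log2 difference was 0.86, against -0.36 for the mt-Nd mRNAs, and mt-Atp8 had its highest value of any library, 915 RPKM.

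**Figure D4:**
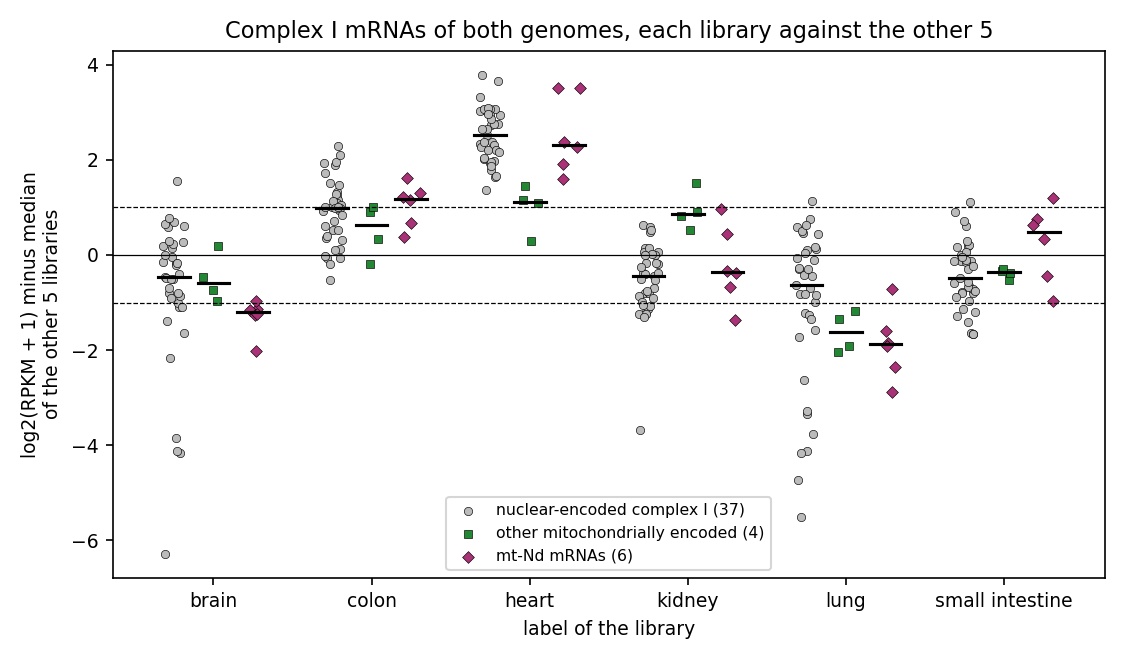
Log2(RPKM + 1) of each library minus the median of the other 5 for the 37 nuclear-encoded complex I subunits (grey), the 4 other mitochondrial mRNAs (green) and the 6 mt-Nd mRNAs (purple); black bars are medians and dashed lines mark 2-fold. In heart every plotted complex I mRNA of either genome lies above the upper dashed line, and in lung the median of the mt-Nd mRNAs is -1.88.

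Nuclear complex I mRNAs were compared with the mt-Nd mRNAs, since the subunits they encode are built into the same complex. A list of 37 subunits, 7 core and 30 accessory, all had values. In the heart library 37 of 37 were at least 2-fold higher, beside 18.7% of all mRNAs, with a median log2 difference of 2.52, where the mt-Nd mRNAs had 2.32. Colon had 18 of 37 higher and none lower, beside 22.5% and 19.4% of all mRNAs, with a median of 0.99. In lung 13 of 37 were at least 2-fold lower and 1 higher, beside 19.2% and 32.1% of all mRNAs, with a median of -0.63. The counts of lower subunits were near the share of all mRNAs in the other 3 libraries, with 10 of 37 in brain beside 25.4%, 8 in kidney beside 18.3% and 7 in small intestine beside 23.8%. Of higher subunits, brain and small intestine had 1 each and kidney none, beside 23.6%, 26.2% and 18% of all mRNAs. Some lower subunits lay near the floor. In brain Ndufa3 and Ndufa12 had no reads, and Ndufs3 and Ndufb6 had 1 read each. In lung 4 subunits had no reads. With subunits without reads set to 3 reads and no pseudocount, 10 were lower in brain and 14 in lung. In small intestine the median log2 differences differed in sign, 0.48 for the mt-Nd mRNAs and -0.49 for the nuclear subunits.

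From heart to lung, all 37 nuclear subunits were at least 2-fold higher in heart, beside 21.6% of all mRNAs, with a median log2 difference of 2.93, or 2.95 with the 4 subunits without lung reads set to 3 reads. The median of the mt-Nd mRNAs was 3.46. Ndufv1, the core subunit that binds NADH, had 326 RPKM in heart and 11.4 in lung. Ndufs1, the large iron-sulfur core subunit, had 145 and 39.1. Ndufa9, an accessory subunit of the matrix arm, had 888 and 105, and Ndufb8, an accessory subunit of the membrane arm, had 331 and 127, the smallest log2 difference of the list, 1.38.

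By RPKM within each library, the median of the mt-Nd mRNAs stood above that of the nuclear subunits. The mRNAs of each genome are read by different ribosomes, and cycloheximide stalls only the cytosolic ones. The part of this in the ratios was not tested. The median RPKM of the mt-Nd mRNAs was 3.82 times that of the nuclear subunits in brain, 4.18 times in colon, 3.48 times in heart, 5.15 times in kidney, 1.85 times in lung and 4.55 times in small intestine. The kidney value depended on the choice of mRNAs, at 2.04 times without mt-Nd6, below the 2.59 times of brain, and 16.6 times against core subunits alone. Lung was the lowest, with 4 of 6 mt-Nd mRNAs above the nuclear median. Mt-Nd6 was above every nuclear subunit in all 6 libraries, and mt-Nd5 was so in small intestine. The densest nuclear subunit was Ndufb7 in heart, with 4924 RPKM, and Ndufa6 in brain and colon, with 765 and 2037 RPKM.

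Counted in reads, the nuclear subunits took 1.35% in heart, 0.504% in colon, 0.236% in brain, 0.196% in small intestine, and 0.184% in both kidney and lung. Reads on the measured mt-Nd mRNAs were fewer than those on the nuclear list in lung, brain and heart, at ratios of 0.595, 0.700 and 0.893. They were more in colon, small intestine and kidney, at 1.16, 1.81 and 1.92. Reads on mt-Nd4, which was not analysed here, would raise each ratio by an unknown amount. Whether the full set of mt-Nd mRNAs had fewer reads than the nuclear list is therefore not settled. Heart had the largest share for both genomes but not the largest ratio between them.

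Lists of factors that act on complex I or on mitochondrial gene expression were counted in the same way, beside the 18.7% of all mRNAs that were at least 2-fold higher and the 21.3% that were lower in heart. Of 13 complex I assembly factors compared, 6 were at least 2-fold higher in heart and none lower, with a median log2 difference of 0.86. Heart did not lead for this list. In colon 7 of the 13 were higher and none lower, beside 22.5% and 19.4% of all mRNAs, with a median of 1.22. In heart, Ndufaf2 was the densest of all 15 with values, with 163 RPKM, against 278 RPKM in colon. Tmem186, which had too few reads to be compared, was the least dense in heart, with 4.34. Directly against lung, where 21.6% of all mRNAs were higher in heart and 35.2% lower, 5 of the 13 were higher in heart and 1 was lower.

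Of 13 factors of mitochondrial transcription and RNA stability, 7 were at least 2-fold higher in heart and none lower, beside the same 18.7% and 21.3% of all mRNAs. Lrpprc, which stabilises mitochondrial mRNAs, was the densest in heart, with 52.3 RPKM against 5.98 in lung, and Fastkd2, which had too few reads to be compared, the least dense of the 14 with values, with 2.90. Heart over lung, 7 were higher and 1, Mterf4, was lower, beside 21.6% and 35.2% of all mRNAs.

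Of 11 mitochondrial translation factors, 8 were at least 2-fold higher in heart and 1 lower, again beside 18.7% and 21.3% of all mRNAs. Tufm, the mitochondrial elongation factor Tu, had 167 RPKM in heart and 43.6 in lung. Mtif3, an initiation factor, went the other way, with 25.1 RPKM in heart and 54.7 in lung. Mtrf1, a release factor, was the least dense in heart, with 5.02 RPKM. Heart over lung, 7 of these factors were higher and 2 lower, beside 21.6% and 35.2% of all mRNAs.

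The nuclear mRNAs whose pattern was most like that of the mt-Nd mRNAs were taken from 4290 with at least 50 reads in every library, by Pearson's r over the 6 libraries with the mean of the mt-Nd mRNAs on the log2 scale. Atp5me, a subunit of ATP synthase, had r = 0.992, with 563 RPKM in brain, 1778 in colon, 3323 in heart, 993 in kidney, 503 in lung and 1087 in small intestine. It was followed by Micos13, a subunit of the complex that forms cristae junctions (0.980), Tpt1, the translationally controlled tumour protein (0.975), Cox6c, a subunit of cytochrome c oxidase (0.973), and Vdac1, the outer membrane channel (0.966). All 5 were highest in heart, and Atp5me, Micos13 and Tpt1 were lowest in lung, whereas Cox6c and Vdac1 were lowest in brain. These values rest on 6 points that share the total of each library, and 5 were picked from 4290.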

How the data were processed

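Ribo-seq of 6 mouse tissues was analysed, with 1 library each. The authors deposited RPKM per mRNA, with row names that give the transcript, the gene and where the CDS lies. Per the Methods, written for macrophage libraries and taken to hold here, Cutadapt removed adapters, reads under 15 nt were dropped, and STAR aligned the rest to 1 mRNA per gene, that of longest CDS, from Ensembl release 107 (GRCm39). Reads that mapped to several places or had over 2 mismatches were excluded. Tool versions and strand handling are not given in the sources used here. Exclusion of multi-mapped reads lowers mRNAs with copies in the reference.

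RPKM times CDS length gave whole reads for 100% of values in every library. These reads, 4504853 to 10635031 per library, gave 95% Wilson intervals for shares, exact Poisson intervals for RPKM and log-normal counting intervals for ratios. Reads carry no molecular identifiers, so intervals cover counting error only. Recovery was tested on simulated data. Symbols, matched for 99.9% of 18437 gene IDs, coordinates and sequences come from GRCm39 with GENCODE M39, a later annotation of the same build. Differences are on the log2(RPKM + 1) scale, with a pseudocount of 1, over mRNAs with at least 100 reads in all. A count model and p-values were not used, since no tissue had replicates.

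Members and lists were chosen with earlier results of these data known. Named mRNAs were the mt-Nd mRNAs, the other mitochondrial mRNAs, Kri1, Ndufs1, Ndufv1, Ndufa9, Ndufb8, the highest and lowest of each list and the 5 nuclear mRNAs most like the members. Mtif3, Mterf4, the lung values of Tufm and Lrpprc, and the pairs of subunits were chosen after their values were seen. A planned ratio of mt-Nd4l to mt-Nd4 was not run, as mt-Nd4 was not analysed here. Alternatives covered the denominator, size factors, pseudocount, filter, fold, thinning, means, core subunits and, added after the data were seen, leaving out mt-Nd6. Tools were pandas 2.3.3, numpy 2.4.6, scipy 1.17.1 and matplotlib 3.10.9 under Python 3.11.15.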

Additional observations from a re-analysis of the deposited data

How the results depend on the processing

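No paired analysis was possible because each tissue had 1 library, and no library could be left out of a group. The median log2 ratio of heart to lung kept its sign under every alternative run, and heart had the highest and lung the lowest share of reads under each, but the order of other libraries changed. With Kri1 left out of the denominator, the share of reads on the mt-Nd mRNAs moved by more than counting error to 0.169% in brain, 0.626% in colon, 1.22% in heart, 0.455% in kidney and 0.412% in small intestine. Without the other mitochondrial mRNAs in the denominator it was 0.168%, 0.595%, 1.254%, 0.366% and 0.360% in the same order. Lung did not move under either, and thinning to the lowest total moved no share. Leaving out mt-Nd6, chosen after the data were seen, gave shares of 0.0697% in brain, 0.192% in colon, 0.694% in heart, 0.127% in kidney, 0.0492% in lung and 0.186% in small intestine.

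The median log2 ratio of heart to lung was 3.46, 3.84 without mt-Nd6 and 4.09 with median-of-ratios size factors, which moved the median of all mRNAs from -0.31 to 0.09. Relative to that median, the mt-Nd mRNAs stood 3.77 higher, and 4.00 with size factors. For lung against the other 5 libraries the median of all mRNAs moved from 0.32 to -0.07, and for small intestine from -0.01 to 0.17. With size factors 2 of 6 were at least 2-fold higher in colon, in place of 4. Without Kri1, 1 was higher in kidney and 1 lower in small intestine. At 1.5-fold, kidney had 1 higher and 2 lower, and small intestine 3 higher and 1 lower. A pseudocount of 0.1 and no filter moved none of these.

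Set against the nuclear subunits by means in place of medians, the ratio was 6.49 in colon, 3.97 in heart, 9.05 in kidney, 3.12 in lung and 7.61 in small intestine. Against core subunits alone it was 6.12 in brain, 6.22 in colon, 5.57 in heart, 16.6 in kidney, 4.33 in lung and 10.3 in small intestine. Without mt-Nd6 it was 2.59 in brain, 3.11 in colon, 2.93 in heart, 2.04 in kidney and 1.35 in lung, so that kidney, the highest of the 6 with all members, came below brain. For none of these values was the cause tested. Depth limits mt-Nd1 and mt-Nd3 in lung most, with 129 and 133 reads.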
